A study of Mus musculus with 12 samples.

Results

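Cortex of 4 Fn14ko mice was compared with cortex of 4 MRL/+ mice, 8 of the 12 mice of the series, to describe what differed from the control strain in lupus-prone mice that lacked Fn14. The groups were taken from the strain label of each sample. MRL/lpr mice are MRL/MpJ mice with a loss-of-function mutation of Fas (Fas lpr/lpr), the gene of a death receptor. The Fn14ko mice (labelled Fn14koMRL) carried the same Fas mutation and also lacked Fn14, whereas MRL/+ (labelled MRL/MpJ) carried neither. The comparison therefore joined both genotypes, and the 4 MRL/lpr mice are given beside it for each gene that matters. By the methods, Fn14ko mice were littermates of MRL/lpr at backcross generation 8, and MRL/+ mice came from another supplier, so genotype and source cannot be told apart. All mice were untreated females of about 12 weeks, killed in diestrus. Total RNA was labelled with Cy3 (mice 1 and 3 of a group) or Cy5 (mice 2 and 4) and hybridized to Agilent arrays, 2 mice of the same group on each. Both arrays of a group lay on 1 slide that held no other group and was scanned on a day of its own. Slide, scan and group cannot be told apart either.

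Fn14, encoded by Tnfrsf12a, is a small receptor of the tumour necrosis factor receptor family. Its ligand TWEAK, encoded by Tnfsf12, binds it on endothelium, astrocytes, microglia and neurons, and the receptor signals through TRAF adaptors to both branches of NF-kappaB. In lupus-prone mice the pathway is known for its part in inflammation of the kidney, the skin and the brain vessels. Antibody-secreting cells, which make immunoglobulin and its joining chain, and major histocompatibility complex (MHC) genes, which present peptides to T cells and answer to interferon and NF-kappaB, belong to the immune background of this strain.

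The signal of each gene is relative to the median retained spot of its own channel, set to 1. A gene was called past a limma adjusted p of 0.05, which is a rate of false calls over all 17302 genes quantified. The Cy5 channels of the MRL/+ mice stood apart, with 35.0% and 21.2% of their spots well above background, against 56.6% or more in each other channel. They were not dim, with a median foreground of 180 and 145, against 138 to 273 elsewhere. Their dark corner control spots stood at 6.88 and 6.66 times local background, against 1.26 to 2.74 elsewhere. In them 15 and 9 spots fell short of 2 times background, against 8465 or more in each other channel, so few spots failed that filter there. The 4 Fn14ko mice correlated with each other at 0.976 to 0.988 over all genes and the 4 MRL/+ mice at 0.913 to 0.980. Excitatory neuron markers, which define cortex, summed to 143 to 214 in Fn14ko and to 151 to 190 in MRL/+, and 0 of 20 were called. Striatal markers summed to 211 in Fn14ko mouse 1 and to 24.1 to 43.3 in the other 3 Fn14ko mice, against 21.6 to 31.7 in MRL/+. Choroid plexus markers ranged from 33.1 to 299 in Fn14ko and from 33.3 to 314 in MRL/+. Without Fn14ko mouse 1, 866 genes were called in place of 165, and each of the 46 called genes named here remained called.

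Tnfrsf12a, the targeted gene, was at 0.739, 0.777, 0.604 and 0.655 in the Fn14ko mice and at 1.02, 1.18, 0.943 and 1.28 in the MRL/+ mice. Each Fn14ko mouse was below each MRL/+ mouse, and the 4 MRL/lpr mice were above both groups. The log2 difference from MRL/+ was -0.67 (standard error 0.19, limma adjusted p = 0.104, and p = 0.0286 in a 2-sided exact permutation test, which can go no lower in a design of 4 and 4). The spot remained well above background in all 4 Fn14ko mice, and whether its probe lies in the deleted part is not stated in the sources used here. Its ligand gene Tnfsf12 differed by -0.43 (limma adjusted p = 0.261), and Fas by -0.92 (limma adjusted p = 0.249), with Fas values of MRL/+ mouse 3 within the range of the Fn14ko mice.

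In all, 41 genes were higher (0.237% of those tested) and 124 lower (0.717%) in Fn14ko than in MRL/+, together 0.954%. The mice of the 2 groups did not overlap for 39 of the 41 and for all 124, against 13.5% of all genes. The median log2 difference was 1.198 among genes called higher (0.75 to 5.14) and -1.34 among genes called lower (-2.99 to -0.68), against -0.10 over all genes. The difference went the same way in Cy3 and in Cy5 mice for all 41 and all 124, which were called on both dyes together, and for 12398 of all 17302 genes. Dim genes leaned low: among the 4847 genes with a mean signal up to 0.5 the median difference was -0.69 and 9 were called, all of them lower. Among the 3009 genes between 2 and 5 the median was 0.21, with 16 called higher and 14 lower. The part that the MRL/+ Cy5 channels, with their high dark corner signal, had in this lean was not tested.

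**Figure D1:**
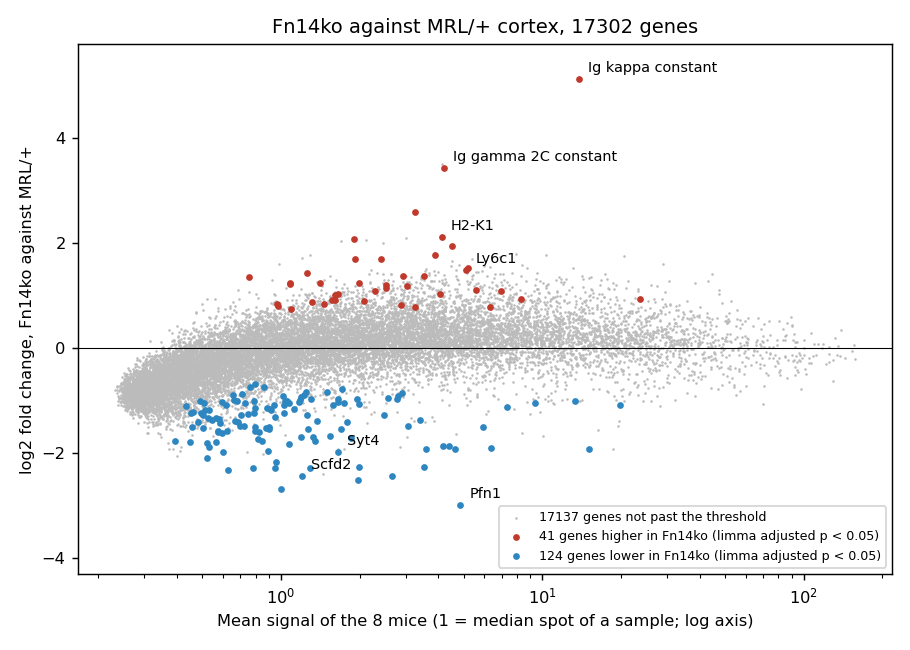
Each point is 1 of 17302 genes, with its mean signal over the 8 mice (log axis) and its limma log2 difference between Fn14ko and MRL/+. The 41 genes called higher (red) reach 5.14 and the 124 called lower (blue) reach -2.99, and the cloud of dim genes at the left lies below 0.

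MRL/lpr mice, which keep Fn14, were set against the same MRL/+ mice. For the 41 genes called higher in Fn14ko the median log2 difference of MRL/lpr from MRL/+ was 0.94 (-0.78 to 2.38), and for the 124 called lower it was -1.23 (-2.98 to 1.80), against -0.10 over all genes. These genes were picked for their distance from the MRL/+ mice that both comparisons share, so the medians are a description only. Over all genes, 14.4% were called between MRL/lpr and MRL/+, and 4.57% between Fn14ko and MRL/lpr.

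Of the 46 called genes named here, 2 remained called whichever mouse or array, or the pair of MRL/+ Cy5 mice, was left out. The first, Scfd2, which encodes a protein of the Sec1 family, was at 0.406, 0.386, 0.337 and 0.370 in Fn14ko and at 1.88, 1.93, 2.25 and 2.04 in MRL/+. No Fn14ko mouse came near the lowest MRL/+ mouse. The difference was -2.43 (standard error 0.17, limma adjusted p = 1.8e-05), or 5.40-fold lower, and it was -2.31 between MRL/lpr and MRL/+. The second, Gm9132 (a predicted gene), was chosen after its values were seen. Its Fn14ko mice had 5.01, 5.74, 5.28 and 6.35, its MRL/+ mice 0.799, 0.901, 0.845 and 1.17, and its MRL/lpr mice 1.30, 1.43, 1.40 and 1.48. The Fn14ko mice stood far above both other groups. The rise over MRL/+ was 2.60 on the log2 scale (standard error 0.15, limma adjusted p = 4.6e-06), with 1.99 between Fn14ko and MRL/lpr (limma adjusted p = 6.1e-05).

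Immunoglobulin transcripts were the highest of all. These genes were chosen after their values were seen, and the files name them by transcript description. The probes quantified lie in coding sequence, and they are shown because the group turns on them (from the deposited files, mm9, with a stop codon in capitals where the probe reaches it). The kappa constant probe is at chr6:70676692-70676751, gamma 2C at chr12:114525600-114525659 and alpha at chr12:114497090-114497149.

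Immunoglobulin kappa constant: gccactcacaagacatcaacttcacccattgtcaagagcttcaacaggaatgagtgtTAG

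Immunoglobulin heavy constant gamma 2C: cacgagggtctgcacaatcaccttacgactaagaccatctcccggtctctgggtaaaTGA

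Immunoglobulin heavy constant alpha: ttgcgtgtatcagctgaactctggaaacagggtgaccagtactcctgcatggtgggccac

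Kappa constant, the constant part of most mouse light chains, was at 3.29, 35.1, 7.32 and 62.9 in Fn14ko and at 0.43, 0.586, 0.285 and 0.484 in MRL/+. Each Fn14ko mouse was above each MRL/+ mouse, with the Cy5 mice 2 and 4 about an order of magnitude above the Cy3 mice 1 and 3. The difference was 5.14 on the log2 scale (standard error 0.66, limma adjusted p = 0.006), with a fold of 14.02 within Cy3 and 88.3 within Cy5. MRL/lpr mice lay between, at 0.738, 1.54, 1.42 and 1.64, which was 1.56 above MRL/+ (limma adjusted p = 0.12) and 3.57 below Fn14ko (limma adjusted p = 0.0083). The difference stayed between 4.47 and 5.69 over the omissions. The call against MRL/+ was lost without MRL/+ mouse 4, without the array it shared with mouse 3, without both MRL/+ Cy5 mice and with dim spots kept. It was also lost by the t-test of the methods and by the study's criterion, which joins that test to a ratio cut-off set by the gene's variability. Of the 46 called genes named here, 9 were lost by that t-test without adjustment. They were kappa constant, gamma 2C, H2-K1, H2-K2, H2-Q7, Gm11127, Igtp, Srgn and the gene of probe A_55_P2102181. The criterion lost 11, these and Maob and Slco1a4.

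Gamma 2C, the heavy chain constant region of an IgG subclass, was at 0.679, 5.66, 1.64 and 24.3 in Fn14ko and at 0.354, 0.538, 0.112 and 0.529 in MRL/+. It rose by 3.43 (standard error 0.72, limma adjusted p = 0.044), and in MRL/lpr it was at 0.142 to 0.252, below 3 of the 4 MRL/+ mice. Without mouse 2 or 3 of Fn14ko, or mouse 2 or 4 of MRL/+, its call was lost, with values from 2.59 to 4.27 over all such omissions. The alpha constant region, of IgA, was at 0.936, 11.98, 1.93 and 16.6 in Fn14ko against 0.168 to 0.603 in MRL/+, a difference of 3.52 that did not pass (limma adjusted p = 0.058). Its 2 probes differed by 3.94 (limma adjusted p = 0.038) and 3.03 (limma adjusted p = 0.106). Jchain, the joining chain of polymeric IgA and IgM, was at 0.443, 1.96, 0.768 and 4.42 against 0.121 to 0.853 (difference 1.72, limma adjusted p = 0.109). The mu constant region, of IgM, did not follow them, at -0.18 (limma adjusted p = 0.76), and its sign turned under other signal corrections. The order of the Fn14ko mice was the same in kappa, gamma 2C, alpha and Jchain, with mouse 4 highest, then 2, 3 and 1. Mice 4 and 2 were Cy5 and mice 3 and 1 Cy3, so mouse and dye cannot be told apart in this order.

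Counts of probes showed the immunoglobulin signal more widely. Of 223 immunoglobulin probes on the array, 65, 95, 94 and 119 were well above background in Fn14ko mice 1 to 4, and 27, 0, 16 and 0 in MRL/+ mice 1 to 4. MRL/lpr mice had 40, 27, 63 and 37. The low MRL/+ counts in Cy5 went with fewer probes detected of any kind in those channels, 13523 and 8293 of 39429, against 22001 or more in each other channel. The Cy3 mice alone, for which MRL/+ detected 26321 and 24503 probes and Fn14ko 26299 and 26170, still had 65 and 94 in Fn14ko against 27 and 16 in MRL/+. Constant region probes gave 13, 14, 15 and 14 of 20 in Fn14ko and 8, 0, 6 and 0 in MRL/+. Kappa variable probes gave 37, 52, 53 and 62 of 97 against 9, 0, 6 and 0. Heavy chain variable probes gave 15, 28, 25 and 42 of 104 against 10, 0, 4 and 0.

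**Figure D2:**
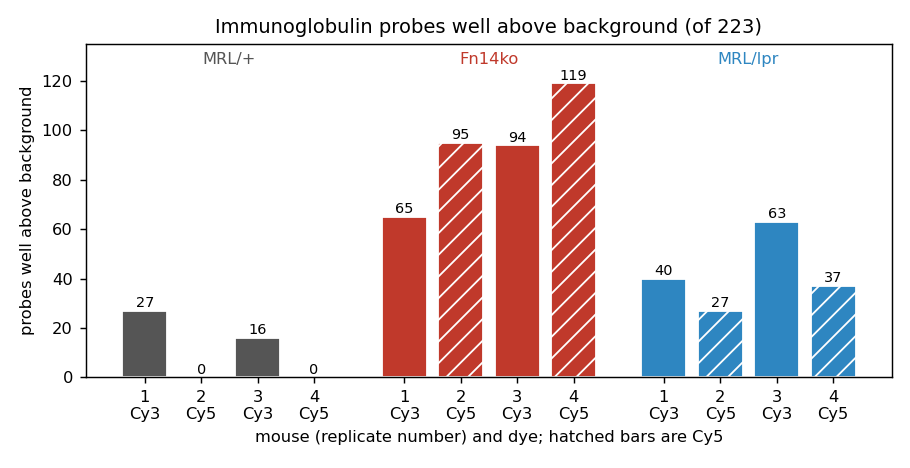
Bars give the number of 223 immunoglobulin probes called well above background in each mouse, by group, with hatched bars for Cy5. Fn14ko mice reach 65 to 119, MRL/+ mice 0 to 27 and MRL/lpr mice 27 to 63.

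Outside the genes quantified, 51 of 13414 probes (0.38%) were well above background in 4 of 4 Fn14ko and 0 of 4 MRL/+ mice, and 37 of these 51 were immunoglobulin probes, out of 203 such probes there. The rule that chose these probes fixed their direction. It was easier to meet because the MRL/+ Cy5 channels detected only 13523 and 8293 of 39429 probes. The reverse pattern, found for 0 probes, needs detection in both of those channels. A probe of an immunoglobulin heavy chain named AF466698 was at least 6.79-fold higher in Fn14ko, and the heavy constant gamma 1 probes were at least 5.04-fold and 4.17-fold higher. These are lower bounds, set by the dimmest probe still measured in each MRL/+ channel. Among the 14 others, the highest bounds were those of probe A_55_P2011794 (at least 2.66-fold) and Mamdc2 (2.39-fold). Probe A_55_P1976450 (1.88-fold), 5830408C22Rik (1.63-fold) and NAP059589-1 (1.62-fold) were also among them. So were, picked after their values were seen, the chemokine genes Ccl8 (at least 2.24-fold), Cxcl10 (1.56-fold) and Cxcl9 (1.51-fold). The lymphocyte gene Ms4a4b (1.19-fold) was another, as were Gbp4 (1.51-fold) and Gbp11 (1.29-fold), which encode interferon-inducible GTPases. The raw foreground of Ccl8 was 110, 247, 242 and 2027 in Fn14ko mice 1 to 4 and 40.0 to 110 in MRL/+. As with the antibody genes, mouse 4, a Cy5 mouse, was the highest. Ly6d, Gpr65 and the B cell gene Cd79b were also among the 14, with no fold bound above 1.

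Of 23 lymphocyte markers listed, 13 were too dim to be quantified, and of the 10 measured, Jchain among them, 0 were called. Their summed signal was 8.30 to 13.9 in Fn14ko and 9.75 to 18.7 in MRL/+, so the groups overlapped. In bulk tissue, more cells of a type and more RNA in each cell cannot be told apart.

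Several MHC class I genes rose and none passed as lower. Of 23 genes listed for class I and peptide loading, 19 were measured. 4 were called higher and 0 lower (21.1% called, against 0.954% of all genes), and 15 had a positive difference. The median was 0.44, against -0.10 over all genes. Brighter genes leaned higher, with a median of 0.09 over all genes with a mean signal of 1 to 2 and 0.21 over those of 2 to 5. H2-K1, a classical class I heavy chain measured by 9 spots, was at 2.48, 5.79, 5.55 and 13.7 in Fn14ko and at 1.05, 1.31, 1.13 and 1.92 in MRL/+. Even the lowest Fn14ko mouse was above each MRL/+ mouse. The rise was 2.13 (standard error 0.38, limma adjusted p = 0.024), with 2.19 (limma adjusted p = 0.023) and 1.29 (limma adjusted p = 0.147) at its 2 probes.

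H2-Q7, a non-classical class I gene, was at 1.19, 2.89, 3.14 and 5.33 against 0.816, 0.67, 0.603 and 0.55, a rise of 2.08 (limma adjusted p = 0.026). The other called members of the list, H2-Q8 and H2-Q2, rose by 1.71 and 1.70 (both with a limma adjusted p of 0.019). Class I genes off the list were named only if they were called, so they add no support. They were H2-K2 at 1.95, H2-M2 at 1.25 and predicted gene Gm11127 of the same region at 1.39. 4 members had a negative difference, Tap1 of the peptide transporter (-0.97), the class I activator Nlrc5 (-0.84), H2-T24 (-0.75) and H2-M3 (-0.44), none of them called, and in all but Tap1 the sign turned with loess scaling. H2-T23, another non-classical gene, differed by 1.36 (limma adjusted p = 0.070). H2-D1 had 0.8291, 1.74, 4.33 and 7.48 against 0.474 to 0.773 and missed the threshold (2.07, limma adjusted p = 0.066). B2m, the light chain shared by class I molecules, had 7.20, 16.2, 9.72 and 16.5 against 1.72 to 5.96 and missed it too (1.58, limma adjusted p = 0.118). In MRL/lpr the differences from MRL/+ of H2-K1, H2-Q7 and H2-Q8 were smaller in value, at 1.29, 0.86 and 1.22. The difference of Fn14ko from MRL/lpr was 0.83 for H2-K1 (limma adjusted p = 0.26) and 1.22 for H2-Q7 (limma adjusted p = 0.091). Over the whole list the median of MRL/lpr against MRL/+ was 0.51, beside 0.44 for Fn14ko, with 4 called higher and 0 lower. Between Fn14ko and MRL/lpr, 0 of the 19 were called.

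Class I genes are near copies of each other. Of 52 pairs of class I probes from different genes, 2 shared a run of 20 or more of their 60 bases, the longest being 28 bases between H2-K2 and H2-Q7, so single members of the family are uncertain. The calls also rested on few mice: without Fn14ko mouse 2 or MRL/+ mouse 4, H2-K1 (1.52 to 2.73 over the omissions), H2-Q7, H2-Q8 and H2-Q2 were no longer called, which left 0 called in the list.

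**Figure D3:**
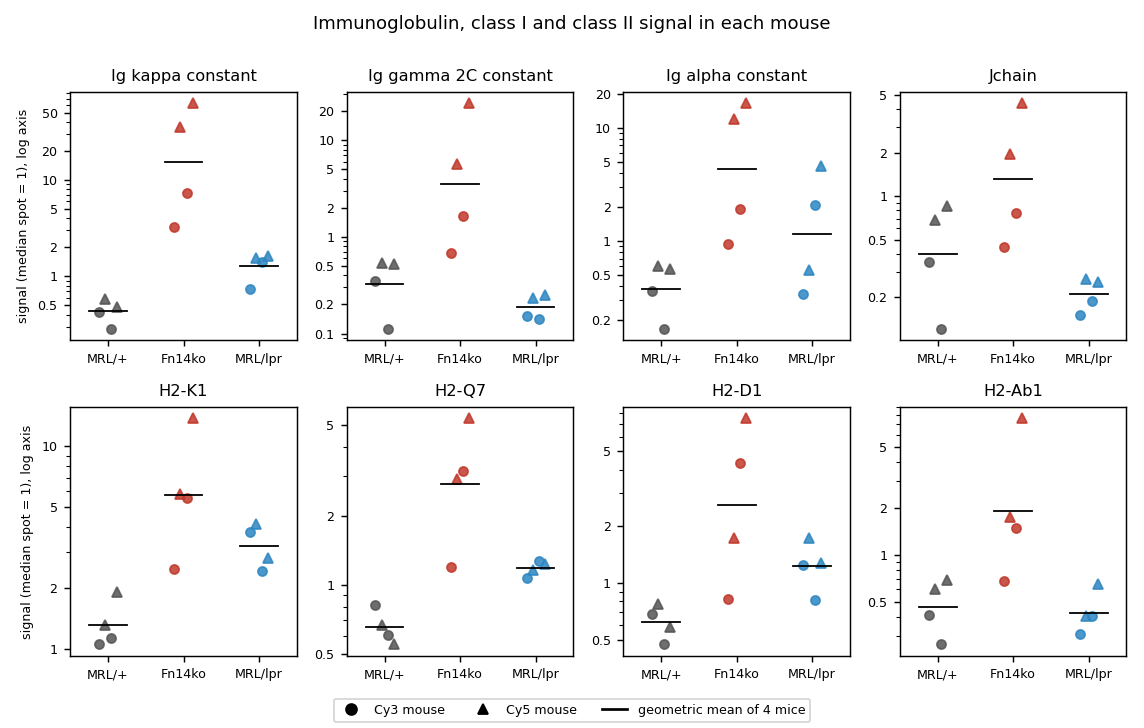
Signal of 4 immunoglobulin-related genes and 4 MHC genes in each of 12 mice on log axes, with circles for Cy3, triangles for Cy5 and a bar at the geometric mean of 4 mice. Kappa constant in Fn14ko spans 3.29 to 62.9 above MRL/+ at 0.285 to 0.586, and H2-K1 spans 2.48 to 13.7 above 1.05 to 1.92.

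The 250 bases before the annotated start of H2-K1 and H2-Q7 (RefSeq, GRCm38.p6) are shown because class I promoters are textbook targets of NF-kappaB. Whether Fn14 or NF-kappaB had a part in the level of these genes was not tested. The capitals mark GGATTCC, the core of an NF-kappaB motif, and, in H2-K1, TGACGC, a variant of the core of a cyclic AMP element. Only the form TGACGC was marked, so the tgacgt of H2-Q7 stands in lower case. The windows are chr17:34000334-34000583 on the minus strand and chr17:35438905-35439154 on the plus strand.

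H2-K1: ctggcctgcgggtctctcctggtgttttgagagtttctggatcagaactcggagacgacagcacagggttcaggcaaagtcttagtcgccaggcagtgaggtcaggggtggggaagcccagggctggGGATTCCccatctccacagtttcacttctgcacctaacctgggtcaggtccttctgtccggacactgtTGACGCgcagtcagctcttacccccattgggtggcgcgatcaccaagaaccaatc

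H2-Q7: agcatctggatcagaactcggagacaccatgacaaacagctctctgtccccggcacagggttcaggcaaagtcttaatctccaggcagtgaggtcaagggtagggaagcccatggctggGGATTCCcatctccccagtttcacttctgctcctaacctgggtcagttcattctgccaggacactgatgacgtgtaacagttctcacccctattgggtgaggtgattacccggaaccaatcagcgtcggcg

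Searched on both strands, GGATTCC was present in 1041 of 32851 such windows (3.17%), and TGACGC, which overlaps it nowhere in these sequences, in 6.12%. H2-D1, H2-Q6 and H2-M5 also held GGATTCC, whereas the called genes H2-Q2 and H2-M2 did not, nor did H2-T23 and B2m. H2-Q6 differed by 0.14 between Fn14ko and MRL/+ (limma adjusted p = 0.674).

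Class II genes, which display peptides to helper T cells, did not pass against MRL/+. Of 7 measured, 0 were called. Cd74, the invariant chain, was at 1.55, 5.08, 2.14 and 11.7 in Fn14ko and at 0.678, 0.784, 0.699 and 1.54 in MRL/+ (difference 2.11, limma adjusted p = 0.065). H2-Ab1 was at 0.68, 1.76, 1.499 and 7.62 against 0.265 to 0.694 (2.05, limma adjusted p = 0.063), in MRL/lpr it was -0.12 from MRL/+, and Fn14ko stood 2.18 above MRL/lpr (limma adjusted p = 0.020). In Cd74 each Fn14ko mouse was above each MRL/+ mouse, and in H2-Ab1 mouse 1 fell within the MRL/+ range.

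Of 28 interferon response genes measured, 1 was called (3.57%, against 0.954% of all genes), Igtp, which encodes an interferon-inducible GTPase. It was at 0.671, 1.24, 0.717 and 1.75 in Fn14ko and at 0.231 to 0.560 in MRL/+, a rise of 1.37 (limma adjusted p = 0.043), while MRL/lpr stood 0.31 above MRL/+. The median of the list was 0.02. Of 17 chemokine and receptor genes measured, 1 was called (5.88%). Cxcl12, whose product guides leukocytes and neural precursors, was called at 0.92 (limma adjusted p = 0.033), and MRL/lpr stood 1.51 above MRL/+. Its 2 probes disagreed, at 1.13 (limma adjusted p = 0.019) and -0.17 (limma adjusted p = 0.692). Of 23 genes of the TWEAK, Fn14 and NF-kappaB pathway, 0 were called, and their median was -0.14.

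Vessel genes were called higher in Fn14ko. The endothelium and pericyte list was the only one of 12 marker lists with a call, 3 of 21 measured genes higher and 0 lower. The share called was 14.3%, against 0.954% of all genes. The median of the list was 0.45, against -0.10 over all genes and 0.21 over genes with a mean signal of 2 to 5. The summed signal of the list was 48.0 to 62.2 in Fn14ko against 31.7 to 37.7 in MRL/+. Ly6c1, a surface protein of brain endothelium and monocytes, was at 7.40, 8.26, 7.12 and 6.98 against 3.61, 2.64, 3.34 and 1.53, and the groups lay far apart. It rose by 1.49 (standard error 0.30, limma adjusted p = 0.039). Slco1a4, an organic anion transporter of the blood-brain barrier, rose by 0.85 (limma adjusted p = 0.048), and Esam, an adhesion molecule of endothelial junctions, by 0.80 (limma adjusted p = 0.038). All 3 stood as high in MRL/lpr, at 1.47, 1.05 and 0.98 above MRL/+. Ly6a, which encodes Sca-1 of vascular and stem cells, rose by 1.38 and Srgn, a proteoglycan of blood and endothelial cells, by 1.45 (limma adjusted p = 0.048 and 0.040). Epb41, of the membrane skeleton, rose by 1.24 (limma adjusted p = 0.037). The blood cell list overlapped between groups, with a summed signal of 105 to 261 in Fn14ko and 90.0 to 143 in MRL/+, 0 of 9 called. Without MRL/+ mouse 4, the lowest for Ly6c1, Slco1a4 and Esam, none of these 5 vessel and surface genes stayed called.

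Col6a1, a collagen of vessel walls, was at 1.56, 1.23, 1.96 and 1.33 in Fn14ko, at 0.733, 0.706, 0.755 and 0.424 in MRL/+ and at 3.01, 3.33, 4.47 and 2.70 in MRL/lpr. The Fn14ko mice sat between the other groups without touching either. They were 1.23 above MRL/+ (limma adjusted p = 0.029) and differed by -1.15 from MRL/lpr (limma adjusted p = 0.011). The immediate early gene Egr4, a transcription factor induced by neuronal activity, was called at 1.53 (limma adjusted p = 0.040) and stood 2.14 above MRL/+ in MRL/lpr. It was the 1 called member of 20.

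Genes of neurotransmission were called in both directions and few in each list. Of 24 GABA genes measured, 2 fell and 0 rose (8.33% called, against 0.954% of all genes). Gabbr1, a subunit of the metabotropic GABA receptor, was at 1.52, 1.00, 1.41 and 1.23 in Fn14ko and at 3.19, 2.17, 3.01 and 2.36 in MRL/+, with no overlap. It fell by 1.05 (standard error 0.19, limma adjusted p = 0.024), with like values at both probes. Slc6a11, the GABA transporter GAT-3 of astrocytes, fell by 0.94 (limma adjusted p = 0.033). Of 35 synaptic vesicle genes, 2 were called (5.71%). Syt4, a synaptotagmin, was at 0.624, 0.889, 0.416 and 0.781 against 2.30, 2.16, 3.66 and 2.40. The groups lay far apart, and it fell by 1.98 (limma adjusted p = 0.032). Syn3, a synapsin, fell by 1.02 (limma adjusted p = 0.040). MRL/lpr stood at -0.92 for Gabbr1, -0.84 for Slc6a11, -1.01 for Syt4 and -0.65 for Syn3 against MRL/+.

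Kcnn2, a small-conductance calcium-activated potassium channel, was at 5.93, 5.01, 5.69 and 4.98 in Fn14ko, at 3.34, 2.02, 3.65 and 1.95 in MRL/+ and at 2.34 to 3.52 in MRL/lpr. Fn14ko was above both other groups. It rose by 1.03 over MRL/+ (limma adjusted p = 0.035) and stood 0.86 above MRL/lpr (limma adjusted p = 0.027), while MRL/lpr was 0.17 from MRL/+ (limma adjusted p = 0.55). Maob, which oxidizes monoamines in astrocytes and serotonergic cells, rose by 1.25 (limma adjusted p = 0.032). It was the 1 called member of 33 monoamine and acetylcholine genes, whose median was -0.38. Of 42 glutamate receptor and scaffold genes and of 35 G protein and adenylyl cyclase genes, 0 were called.

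Of the 12 steepest falls, Pfn1 and Psmb2 were on a list. Pfn1, profilin of the actin cytoskeleton, was at 1.08, 1.65, 0.619 and 1.19 in Fn14ko, at 8.59, 7.37, 10.5 and 7.82 in MRL/+ and at 0.682 to 1.40 in MRL/lpr. Both lupus-prone groups were far below MRL/+. It fell by 2.99 (standard error 0.38, limma adjusted p = 0.006), and it was the 1 called member of 31 actin and cytoskeleton genes. Snd1 (a nuclease of RNA granules), Ap2a2 (a clathrin adaptor subunit), Dync1li1 (a dynein light intermediate chain) and Psmb2 (a proteasome subunit) fell by 2.68, 2.43, 2.33 and 2.28. Psmb2 was the 1 called gene of 39 proteasome genes, whose median was 0.37. Trp53, the p53 tumour suppressor, was at 0.290, 0.278, 0.108 and 0.160 against 0.666 to 0.953 and fell by 2.09 (limma adjusted p = 0.019), at a dim spot that was well above background in 3 of 4 MRL/+ mice. The remaining 6 of the 12 genes with the steepest falls were Igsf11, Plekhj1, Mgst3, Rnf126 and Sez6l, from -2.27 to -2.16, and Scfd2. In MRL/lpr each of the 12 also lay below MRL/+, at -2.98 to -1.63 on the log2 scale.

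**Figure D4:**
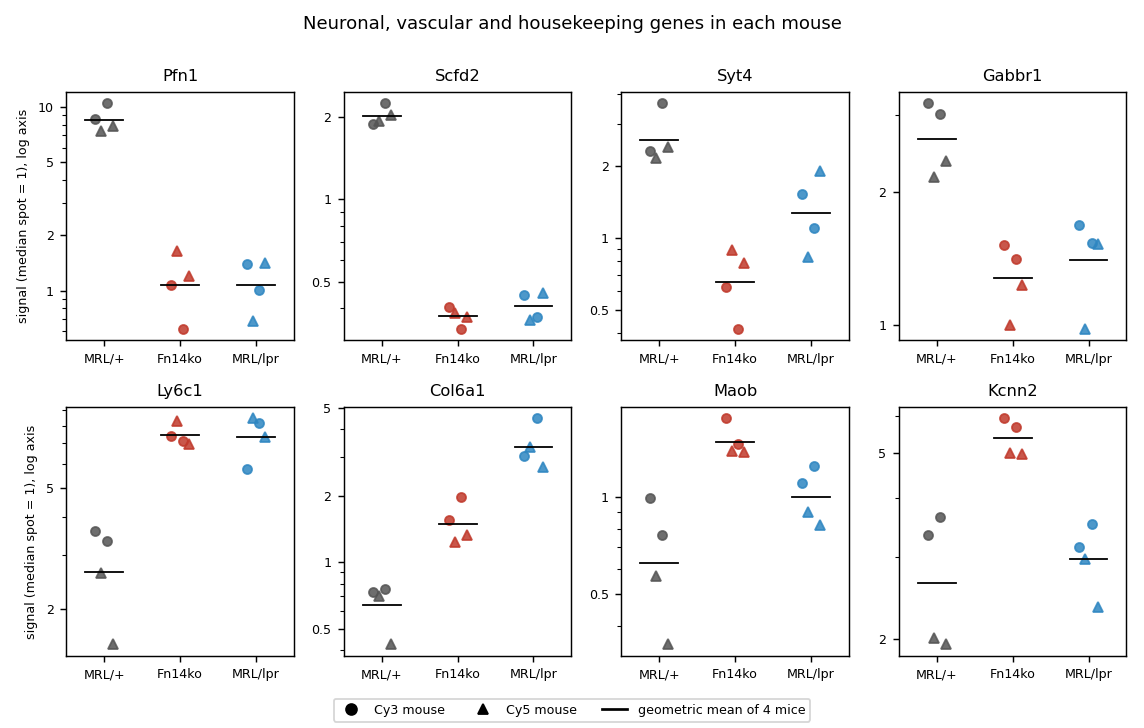
Signal of 8 called genes in each of 12 mice on log axes, with circles for Cy3, triangles for Cy5 and a bar at the geometric mean of 4 mice. Pfn1 falls from 7.37 to 10.5 in MRL/+ to 0.619 to 1.65 in Fn14ko with MRL/lpr at the same low level, and Kcnn2 is higher in Fn14ko than in both other groups.

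In 2 further lists 1 gene fell. The ribosomal protein gene Rps19 was at 5.88, 5.78, 5.90 and 6.57 in Fn14ko, at 10.02, 10.5, 17.6 and 12.7 in MRL/+ and at 9.30 to 12.8 in MRL/lpr. It fell by 1.04 (limma adjusted p = 0.044), the 1 call among 81 cytosolic ribosomal protein genes, and its difference from MRL/lpr was -0.83 (limma adjusted p = 0.0501). Pik3r1, the regulatory subunit of PI3 kinase, fell by 1.13 (limma adjusted p = 0.043), the 1 call among 35 genes of PI3K, Akt and mTOR. MRL/lpr lay between, at -0.61 from MRL/+ (limma adjusted p = 0.093), and Fn14ko differed from MRL/lpr by -0.52 (limma adjusted p = 0.26).

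Near the targeted gene on chromosome 17, within 10 Mb of the Tnfrsf12a probe at chr17:23812746-23812805 (mm9), 4 of 301 genes were called (1.33%), against 0.959% of all genes with a position. Zfp13, a zinc finger gene less than 1 Mb away, was at 0.626, 0.563, 0.583 and 0.516 in Fn14ko and at 0.863 to 1.05 in MRL/+ and fell by 0.73 (limma adjusted p = 0.041). MRL/lpr stood -0.11 from MRL/+. Abca3, a lipid transporter, rose by 0.94, ribosomal protein S2 pseudogene 9 fell by 1.26 and the predicted gene Gm5223 fell by 0.99. The pseudogene differed by -1.62 from MRL/lpr (limma adjusted p = 0.0015), where MRL/lpr was 0.36 above MRL/+. The class I genes lie farther along the same chromosome, from 10.3 to 13.8 Mb from the probe, so the window of 20 Mb held 15 called genes of 531 (2.82%). They included an unnamed gene measured by probe A_55_P2102181, which rose by 1.79 at 12.5 Mb, and Tnfrsf21, death receptor 6, which fell by 1.54 at 19.4 Mb.

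Over all 37 gene and marker lists, which held 902 measured genes, 21 genes were called and 14 lists held any. Of all genes tested, 0.954% were called. The highest medians without a call were those of striatum at 0.71, whose summed signal was high in Fn14ko mouse 1, and blood cells at 0.41. The lowest median was that of the monoamine and acetylcholine list. Microglia, astrocyte, interneuron, myelin and complement lists had 0 called genes, with medians from -0.01 to 0.19.

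**Figure D5:**
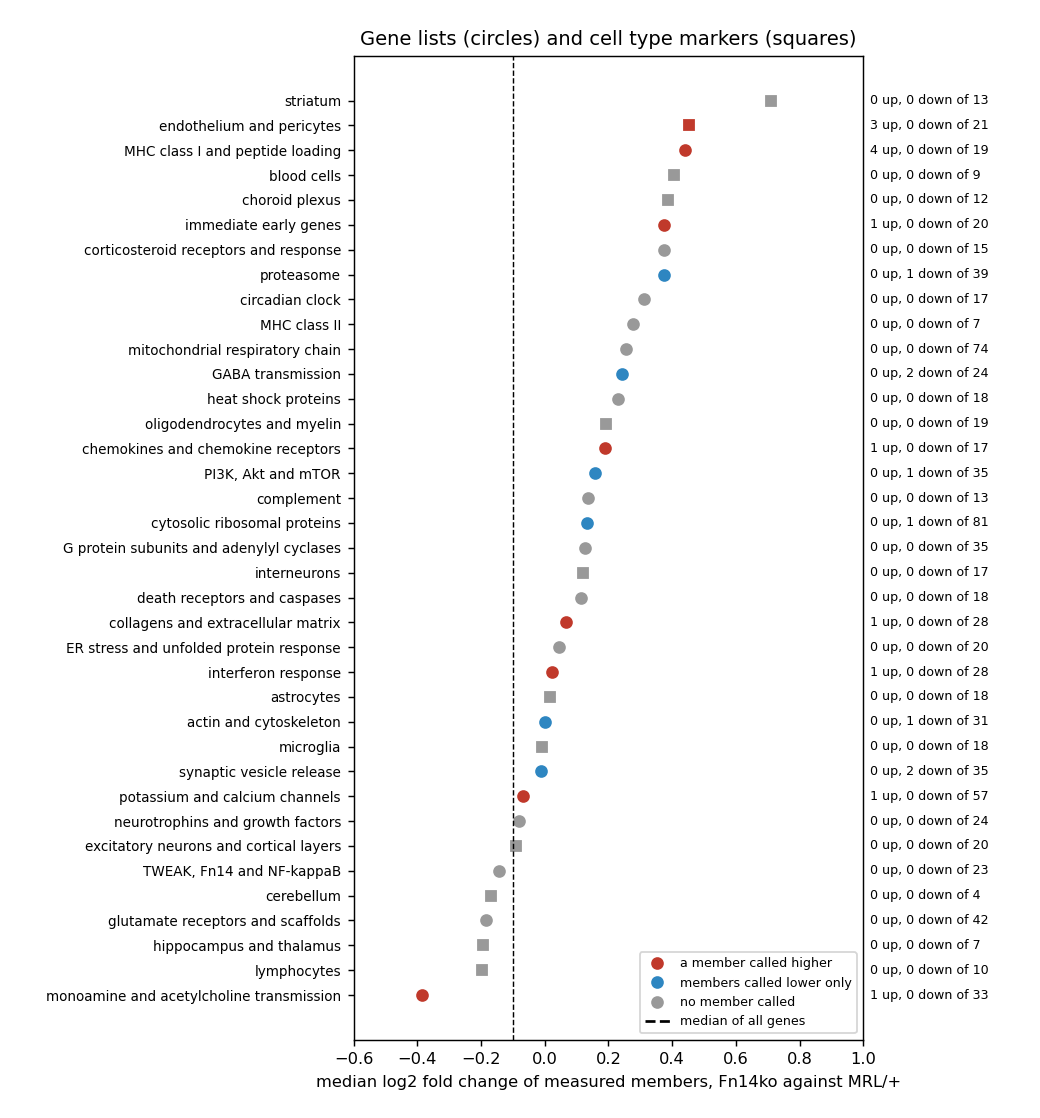
Median log2 difference between Fn14ko and MRL/+ of the measured members of 37 lists (circles for gene lists, squares for cell type markers), with the counts called at the right and a dashed line at the median of all genes, -0.10. Endothelium at 0.45 and MHC class I at 0.44 have the highest medians among lists with a called gene.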

How the data were processed

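The deposited scanner files of 6 arrays gave, per the file headers, the mean foreground intensity and median local background intensity of each spot in both channels, made by the authors with Agilent Feature Extraction and not normalized. Of 43020 non-control spots, those marked as uneven or outlying and those whose foreground fell short of 2 times the background in at least 1 of the 12 mice were dropped, which kept 24255 spots of 17302 genes. Foreground was corrected with normexp (offset 50), each channel was divided by its median retained spot, and spots of a gene were averaged. Log2 values of all 12 mice were fitted with limma 3.58.1 under R 4.3.3, with a dye term, array as a random block (correlation 0.316), a trend in mean signal and Benjamini-Hochberg adjustment. Because 2 mice of a group share an array, 2 arrays a group limit the precision (median standard error 0.25). Tests are 2-sided, and exact permutations used 70 divisions of 8 mice. Python 3.11.15 with pandas 2.3.3 and numpy 2.4.6 made the counts, and matplotlib 3.10.9 the plots.

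On simulated data for Fn14ko against MRL/+, with 200 of 17302 genes changed, the fit called 137 genes, 7 of them unchanged, and recovered 46% of changes of 1 log2 unit and 84% of those of 2. With no change it called 0. These rates describe the simulated data only. Whether they hold for the measured data, with the high dark corner signal of the MRL/+ Cy5 channels, was not tested.

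Genes named are Tnfrsf12a, Tnfsf12 and Fas, the 12 highest and 12 lowest called genes with a symbol and no overlap, those called under 5 signal settings, called members of the lists, called genes within 10 Mb of Tnfrsf12a and the 3 highest probes outside the quantified genes. The brightest members of lists with under 2 calls were examined also: the 66 not called ranged from -0.58 to 2.11. The members and lists were chosen with earlier results of these data known. Immunoglobulin genes, class I genes off the list and Gm9132 were added after their values were seen. Sequences upstream of genes were taken from RefSeq. Alternatives for the signal were other background corrections, scalings and spot filters. Those for the fit were other terms and samples, and each mouse and array left out. The omission of both MRL/+ Cy5 mice was added after the data were seen.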

Additional observations from a re-analysis of the deposited data

Results flagged for a closer look

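In 4 groups 1 mouse stood apart from the other 3, among 122 groups of 4 tested for 61 genes, where chance alone marks about 5% of groups. Cxcl12 was at 1.34 in MRL/+ mouse 2 and at 0.985 to 1.03 in the other MRL/+ mice. Syn3 was at 1.73 in MRL/+ mouse 1 and at 1.49 to 1.52 in the others. Col6a1 was at 0.424 in MRL/+ mouse 4, a Cy5 mouse with few probes detected, and at 0.706 to 0.755 in the others. Rps19 was at 6.57 in Fn14ko mouse 4 and at 5.78 to 5.90 in the other Fn14ko mice. In none of these 4 genes did the mouse that stood apart overlap the other group.

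The probes with the strongest signal outside the quantified genes that were seen in each Fn14ko mouse and in 0 MRL/+ mice were all immunoglobulin probes. AF466698 was at least 6.79-fold higher, and the heavy constant gamma 1 probes at least 5.04-fold and 4.17-fold. The foreground of AF466698 was 174, 1848, 772 and 10341 in Fn14ko mice 1 to 4, against 39.8 to 98.1 in MRL/+ and 63.3 to 89.5 in MRL/lpr. The gamma 1 probe with the higher bound was at 151 to 183 in MRL/lpr, well above background in all 4 mice. It was at 45.3 to 164 in MRL/+ and 276 to 6302 in Fn14ko. The other gamma 1 probe was at 73.0 to 92.9 in MRL/lpr.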

How the results depend on the processing

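Each mouse counted. With 1 mouse left out, the number of genes called ran from 8 (without MRL/+ mouse 4) to 2164 (without MRL/+ mouse 3), and was 26 without Fn14ko mouse 2, 44 without Fn14ko mouse 3, 866 without Fn14ko mouse 1 and 337 without MRL/+ mouse 1. Without an array it was 21 (Fn14ko array 2), 348 (MRL/+ array 1) and 2 (MRL/+ array 2), and without both MRL/+ Cy5 mice, an omission chosen after seeing the data, 6. Of the 46 named genes called, 5 stayed called without MRL/+ mouse 4, 11 without Fn14ko mouse 2, 14 without Fn14ko mouse 3, 33 without Fn14ko mouse 4 and 2 without both Cy5 mice. None of the 46 turned its sign in any alternative.

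Other settings gave, as higher and lower genes, 1163 and 1674 (2837 in all) with background subtraction, 121 and 891 (1012) with processed signal, 847 and 1432 (2279) with capped background, 90 and 514 (604) with the 75th percentile and 656 and 875 (1531) with loess. These splits and those that follow stand beside 41 and 124. The 75th percentile moved the median difference to -0.35 and loess to 0.04. Filters gave 0 of 29149 genes (1683 at an unadjusted p under 0.05 in limma) with dim spots kept, 805 (167 and 638) with spots well above background in all 12 mice, 935 (245 and 690) with their processed signal and 79 (22 and 57) with the filter on 8 mice. Fits gave 294 (86 and 208) without dye, 4787 (1799 and 2988) in Cy5 mice, 1881 (976 and 905) without array block, 365 (140 and 225) on 8 mice and 68 (10 and 58) without trend. The methods' t-test gave 2622 unadjusted (1382 and 1240) and 2 after Benjamini-Hochberg, and the study's criterion 596 (228 and 368). With a replicate block it was 2012 (909 and 1103), and 37 near Tnfrsf12a. Deviations of each mouse from its group mean, over all genes, correlated at 0.215, 0.573, 0.721 and -0.03 between same-numbered mice of the 2 groups. Between mice of unlike number they ran from -0.688 to 0.668, so the numbers were not taken to pair the mice. With the replicate block Tnfrsf12a was called at the same -0.67.

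Near Tnfrsf12a, 4 genes became 15 within 20 Mb, 52 with background subtraction, 12 with processed signal, 42 with capped background, 24 with loess, 13 with either filter on spots well above background, 0 with dim spots kept or the 8-mouse filter, 2 in Cy3 and 83 in Cy5 mice, 34 without array block and 1 without trend. The t-test gave 48 and then 0, the criterion 12. With 1 mouse left out it ran from 0 to 41, and it was 2 without Fn14ko array 1 and 0 without Fn14ko array 2, MRL/+ array 2 or both Cy5 mice. Tnfrsf12a passed with background subtraction (-0.77), capped background (-0.73), loess (-0.65), Cy5 mice (-0.79), no array block (-0.67) and the t-test and criterion (-0.67), and without MRL/+ mouse 3, with -0.77 to -0.56 over single mice left out. With dim spots kept it was 0.056 and Tnfsf12 0.30. The mu constant region turned to 0.095 with processed signal, 0.030 with capped background, 0.44 with loess, 0.54 with dim spots, 0.054 without Fn14ko array 1, 0.061 without MRL/+ array 1, 0.011 without both Cy5 mice and -0.44 to 0.080 with 1 mouse left out. Among class I genes, loess turned Nlrc5 to 0.32, H2-T24 to 0.17 and H2-M3 to 0.42, and H2-M3 was 0.41 with processed signal and 0.29 with dim spots kept. Each cause was not tested.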

Other observations

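Fn14ko mouse 4 was the highest of the 4 Fn14ko mice for 20 of the 41 genes called higher, and mouse 1 the lowest for 22 of them. Over all genes, mouse 4 was the highest for 26.9%. For the 124 genes called lower, mouse 3 was the lowest of the Fn14ko mice for 85, as it was for 5964 of all 17302 genes.

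MRL/lpr mice had a summed blood cell marker signal of 270 to 772, above both other groups.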
